A study of Mus musculus with 192 samples.

Results

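The cadherin and epithelial-mesenchymal transition (EMT) genes Cdh1, Cdh2, Epcam, Vim, Snai1, Snai2, Twist1, Zeb1 and Zeb2 were followed through retinoic acid (RA) differentiation of mouse embryonic stem cells (mESCs). These 9 genes were taken as a named list out of 45191 gene identifiers in total RNA. No threshold on their values picked them, but earlier results of these data were known when the list was chosen. Only 8 of the 9 were among the 39815 identifiers listed for cell fractions, because those tables list no gene of chromosome 8, where Cdh1 lies. E14 is a male mESC line of the 129 strain. It was kept in 2i medium, which contains inhibitors of MEK and GSK3 and the cytokine LIF, and every library came from this unmodified line. The 0 h samples were the cells in 2i medium, and all later samples had been moved to N2B27 medium without the inhibitors and LIF and with 0.25 µM all-trans RA, so that RA and the loss of 2i cannot be told apart.

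Poly(A) RNA was measured in cytoplasmic and nuclear fractions at 8 times between 0 h and 96 h, with 3 libraries of each fraction at each time (differentiation runs 5, 6 and 7). Unsorted total RNA was measured in 14 libraries of runs 1, 2 and 3, with 3 libraries at 0 h, 2 at 24, 36, 48 and 96 h and 1 at 6, 12 and 72 h. Titles of the single-end libraries at 6, 24, 36, 48 and 72 h give no replicate number, and these were counted here as run 1. At 96 h, cells were also sorted into PDGFRA+ CD24- extraembryonic endoderm-like (XEN) cells and PDGFRA- CD24+ ectoderm-like (ECT) cells, with 1 library each. Small RNA was measured in 32 libraries, 4 at each time. The gene tables held 6860451 to 36284956 estimated counts per library, and the small RNA libraries 1041501 to 16740567 miR counts. The label field for the sort gave the gates the other way round from the protocol. Pdgfra was at 838 counts scaled to a common library size (CPM, TMM-scaled) in the XEN library and 224 CPM in the ECT library, and Cd24a at 23.4 CPM in XEN and 707 CPM in ECT, which is the order of the titles and the protocol. Run 1 gave almost the same total RNA counts at 36 h as at 48 h: their median squared difference was 1.19 times that of counting alone, and no other pair came below 10.2 times.

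Cadherins are transmembrane proteins that join neighbouring cells through calcium-dependent contacts of like with like, and are anchored to actin by catenins. In the textbook form of EMT, epithelial cells replace E-cadherin (Cdh1) with N-cadherin (Cdh2), lose EPCAM and gain the intermediate filament protein vimentin (Vim), while transcription factors of the SNAI, TWIST and ZEB families repress Cdh1 through E-box sequences in its promoter. The miR-200 family and the ZEB factors repress each other in this scheme. Naive mESCs already combine E-cadherin with vimentin, and E-cadherin holds their colonies together.

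Cdh1 fell and Cdh2 rose in unsorted total RNA, but the 2 levels crossed in only 1 of 14 libraries. Cdh1 (chr8:106603351-106670246, GRCm38), the epithelial cadherin, was at 74.0 and 77.7 CPM at 96 h in runs 1 and 2, against 415, 648 and 638 CPM at 0 h in runs 1, 2 and 3. Both libraries at 96 h lay below every library at 0 h. Across the 4 single-end libraries of runs 1 and 2 the change was -2.82 ± 0.33 on the log2 scale (fitted value ± SE, adjusted p = 0.0039, edgeR's quasi-likelihood test with Benjamini-Hochberg adjustment, the test behind each adjusted p given here for counts). In between, Cdh1 was at 432 CPM at 6 h and 441 CPM at 12 h, at 248 and 373 CPM at 24 h, at 106 and 149 CPM at 36 h, at 111 and 142 CPM at 48 h, and at 103 CPM at 72 h. The 6 h library was of run 1 and the 12 h library of run 3. In run 3 Cdh1 fell from 638 CPM at 0 h to 441 CPM at 12 h and 149 CPM at 36 h. In run 1 it fell from 432 CPM at 6 h to 106 CPM at 36 h, where the library was almost the same as that at 48 h. Most of the fall therefore lay before 36 h, in run 3 after 12 h and in run 1 after 6 h. In a fit of all 14 libraries with the read type as a term, Cdh1 was already lower than at 0 h at 24 h (-0.96 on the log2 scale) and at 36 h (-2.23). In bulk samples, fewer cells expressing a gene and less RNA of that gene per cell cannot be told apart.

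Cdh2 (chr18:16588877-16809246, GRCm38), the neural and mesenchymal cadherin, was at 33.4 and 132 CPM at 96 h in runs 1 and 2, against 11.7, 5.50 and 2.70 CPM at 0 h in runs 1, 2 and 3. The groups did not overlap, but the 96 h libraries differed more from each other than any pair at 0 h did in CPM. The unsorted 96 h library of run 1 and the sorted XEN library were among the closest pairs of libraries. Their median squared difference was 15.5 times that of counting alone. The part of this likeness in the values of run 1 at 96 h was not tested. The fitted change was 3.26 ± 0.74 on the log2 scale (adjusted p = 0.024). Within run 1 alone the log2 ratio of 96 h to 0 h was 1.52 and within run 2 alone 4.58, values with 1 library at each time and no test. Without the 96 h library of run 2, which left 1 library at 96 h, the change was 1.98. In the fit of all 14 libraries, leaving out 7 libraries in turn gave 2.26 to 4.25. The size of the change thus depended on the libraries kept, while its direction did not.

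Levels of different genes can be compared only per length, in TPM (the share of transcripts in a library), within one library. At 0 h, Cdh1 exceeded Cdh2 by 31.2-fold in run 1, 104-fold in run 2 and 242-fold in run 3. At 96 h Cdh2 was above Cdh1 in run 2, with 53.6 TPM of Cdh2 and 27.96 TPM of Cdh1, and below it in run 1, with 9.93 TPM of Cdh2 and 19.6 TPM of Cdh1. The ratio of Cdh2 to Cdh1 came closest to 1 elsewhere at 72 h in run 1 (0.932) and at 48 h in run 3 (0.543). The name cadherin switch thus describes the direction of both genes in total RNA, while an excess of Cdh2 over Cdh1 transcripts was seen in 1 library.

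**Figure D1:**
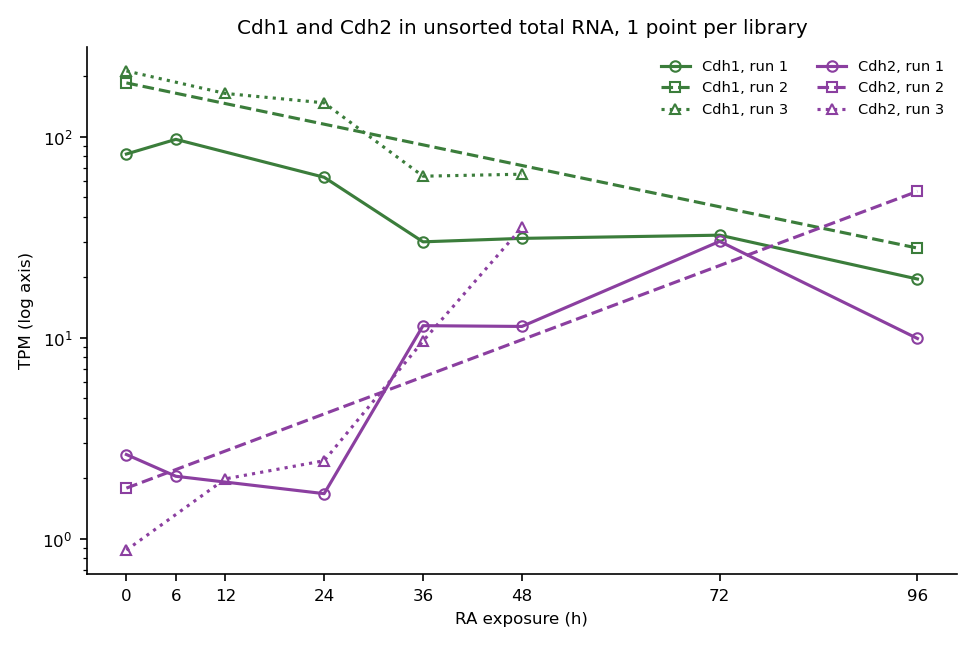
Cdh1 and Cdh2 levels (TPM, log axis) against hours of RA exposure in the 14 unsorted total RNA libraries, 1 point per library, with lines joining the libraries of a run. In runs 1 and 2 the levels of both genes lie closer together at 96 h than at 0 h, in run 1 they are closest at 72 h, and Cdh2 lies above Cdh1 only at 96 h in run 2 (53.6 and 27.96 TPM).

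Of the 9 genes, 5 passed the test in total RNA at 96 h, against 29.7% of all 15777 genes tested. The 4 that rose were Cdh2, Snai1, Twist1 and Zeb2, and Cdh1 fell. In the fit of 14 libraries the counts were 0 of 9 at 6 h and 0 of 9 at 12 h (0 and 1 at an unadjusted p under 0.05 and 0 by DESeq2 at both times), 2 at 24 h, 5 at 36 h, 5 at 48 h, 6 at 72 h and 6 at 96 h. The shares of all genes called at these times were 0.112%, 0.571%, 12.3%, 29.2%, 34.1%, 29.1% and 44.9%. The 6, 12 and 72 h values rest on 1 library each.

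In the fractions, with 3 runs at every time, all 8 listed genes passed the test in cytoplasmic RNA at 96 h and 7 of 8 in nuclear RNA. The shares of all 11817 genes called were 61.2% in cytoplasmic and 61.7% in nuclear RNA, so a call at 96 h was the usual outcome for any gene, and the size and the time of each change carry more than the count. The median change of the 8 genes was 2.03 on the log2 scale in cytoplasmic RNA, against 0.02 over all genes tested. Over all genes, rises (31.8% called) and falls (29.4%) were about as many. Their signed median therefore lies near 0 and does not give the usual size of a change. Against 0 h, the number of genes called in cytoplasmic RNA was 2 at 6 h, 2 at 12 h, 5 at 24 h, 5 at 36 h, 6 at 48 h and 7 at 72 h, with 24.6%, 26.5%, 35.2%, 42.1%, 49.4% and 57.9% of all genes called. In nuclear RNA it was 5, 3, 4, 4, 6 and 7 at the same times, with 27.6%, 31.7%, 37.2%, 46.6%, 52.0% and 59.4% of all genes called.

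**Figure D2:**
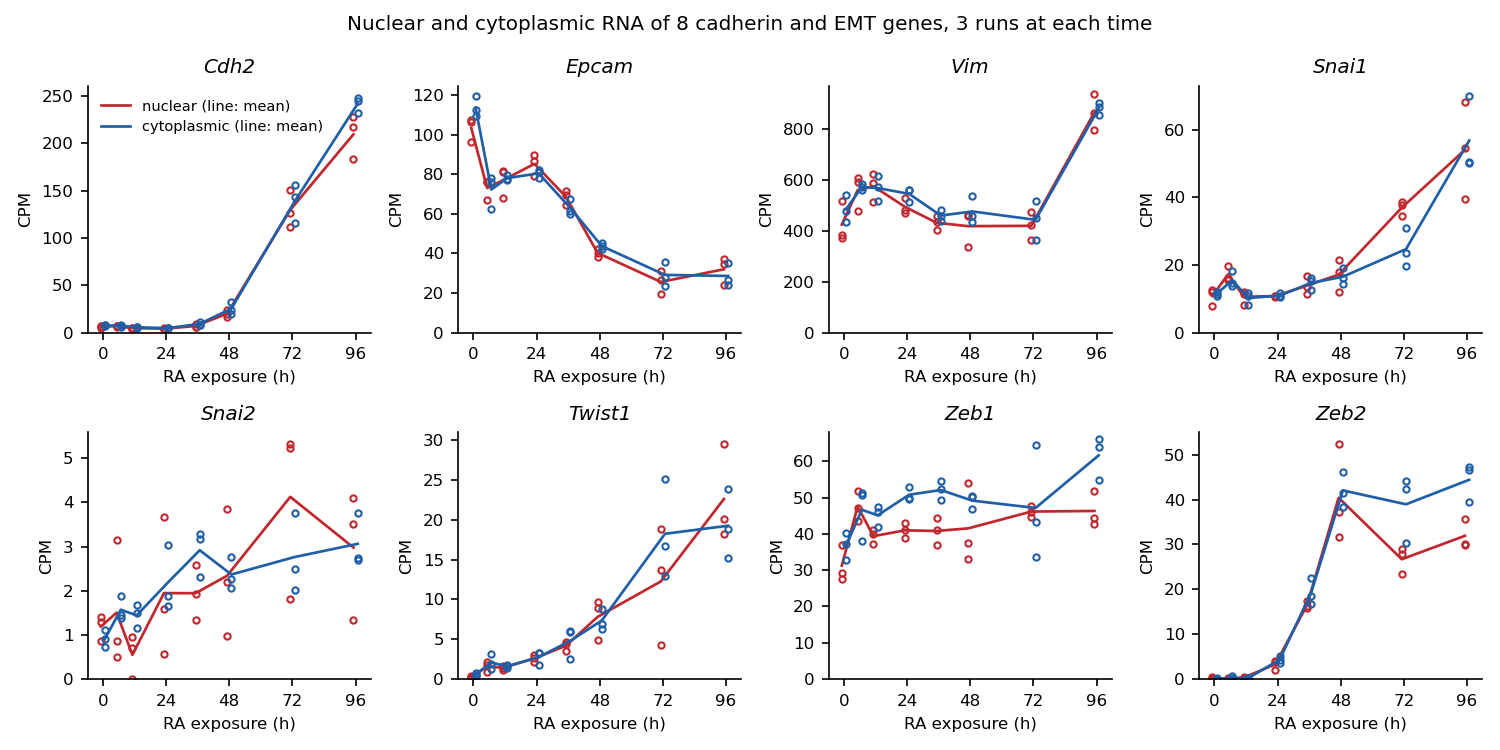
CPM of the 8 genes listed in the fractions against hours of RA exposure, with 1 open point per library (3 runs), a line through the mean of each time, and nuclear and cytoplasmic RNA in different colours; each panel has its own linear axis from 0. Zeb2 climbs between 12 h and 48 h and, in cytoplasmic RNA, then levels off, Cdh2 climbs from 36 h to 96 h (232 to 248 CPM in cytoplasmic RNA at 96 h), and Vim stands above all other times at 96 h.

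Cdh2 first dipped and then rose in both fractions. Cytoplasmic Cdh2 was at 244, 248 and 232 CPM at 96 h in runs 5, 6 and 7, against 7.79, 8.15 and 6.98 CPM at 0 h. Nuclear Cdh2 was at 217, 228 and 184 CPM at 96 h, against 5.03, 7.25 and 6.67 CPM at 0 h. No library at 96 h came near any at 0 h, and the log2 changes were 4.99 ± 0.18 (adjusted p = 5.4e-25) in cytoplasmic and 5.03 ± 0.18 (adjusted p = 5e-25) in nuclear RNA. At 24 h the cytoplasmic level was 5.00, 4.55 and 4.47 CPM, lower than at 0 h by a log2 change of -0.70 ± 0.19 (adjusted p = 0.0031), and the nuclear change was -0.64. From 24 h on each step was a called rise. In cytoplasmic RNA the steps were 0.98 to 36 h, 1.46 to 48 h, 2.45 to 72 h and 0.81 to 96 h on the log2 scale, so the largest step lay between 48 h and 72 h.

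Epcam (chr17:87635979-87651129), which encodes an epithelial adhesion protein that is also a surface marker of undifferentiated stem cells, fell in the fractions in an early and a late step. Cytoplasmic Epcam was at 24.1, 26.8 and 35.0 CPM at 96 h, against 112, 120 and 109 CPM at 0 h. Nuclear Epcam was at 24.2, 34.6 and 37.2 CPM at 96 h, against 108, 96.1 and 106 CPM at 0 h. The groups did not overlap, and the log2 changes were -1.996 ± 0.14 (adjusted p = 1.8e-15) and -1.69 ± 0.14 (adjusted p = 1.8e-13). A fall was already called at 6 h (-0.65 in cytoplasmic and -0.50 in nuclear RNA), none followed until 36 h, and further falls were called from 36 h to 48 h (-0.53 and -0.77) and from 48 h to 72 h (-0.58 and -0.65).

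Epcam did not follow this course in total RNA. It was at 47.1 and 32.8 CPM at 96 h in runs 1 and 2, against 79.0, 23.7 and 25.2 CPM at 0 h in runs 1, 2 and 3. The 0 h libraries lay on both sides of the 96 h libraries, and the fitted change was -0.36 ± 0.56 (adjusted p = 0.65). Without the 0 h library of run 1 it was 0.73, also not called. Run 1 stood apart at 0 h, and the difference between these tables, which were made from other runs and by other read types, was not tested.

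Upstream of the Epcam start, 2 E-box sequences were found in the RefSeq promoter entry (250 bases before to 50 after the start, GRCm38.p6), shown because SNAI and ZEB factors are known to bind this 6-base word. The capitals mark CACCTG, read on either strand (CAGGTG on the other). The second lies 19 bases before the start and the first 187 bases before it.

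Epcam E-box 1, chr17:87635780-87635809, + strand: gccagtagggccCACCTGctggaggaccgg
Epcam E-box 2, chr17:87635948-87635977, + strand: acccataaaaccCAGGTGtggaggagaagc

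Of all 32851 promoter entries, 20.2% hold this word. Among the 9 genes, 5 have an entry. Snai1 holds 1 match, and Vim, Twist1 and the 4 Zeb2 entries hold none. Cdh1, Cdh2, Snai2 and Zeb1 are named only. A match is a description of letters and shows neither binding nor a cause.

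Vim (chr2:13573927-13582826) was the most abundant of the 8 transcripts at both ends of the course and rose late. Cytoplasmic Vim was at 853, 888 and 900 CPM at 96 h, against 435, 539 and 478 CPM at 0 h. Nuclear Vim was at 863, 938 and 794 CPM at 96 h, against 384, 515 and 373 CPM at 0 h. Every library at 96 h was above every library at 0 h, and the changes were 0.86 ± 0.13 (adjusted p = 1.5e-07) and 1.03 ± 0.13 (adjusted p = 3.4e-09) on the log2 scale. Most of the rise came in the last step. Cytoplasmic Vim was at 362, 450.2 and 516 CPM at 72 h, overlapping the 0 h values, and the only called step after 6 h between neighbouring times in either fraction was from 72 h to 96 h (0.99 in cytoplasmic and 1.05 in nuclear RNA). In nuclear RNA the first step, to 6 h, was also called (0.40, adjusted p = 0.014), and the level at 12 h was above that at 0 h (0.44). In total RNA the change at 96 h was 0.76 ± 0.44 (adjusted p = 0.25), and it was called with the run as a block (0.88, adjusted p = 0.040) and without the 0 h library of run 1 (adjusted p = 0.046).

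The SNAI genes encode zinc finger repressors. Snai1 (chr2:167538195-167542814) was at 50.2, 50.4 and 69.9 CPM in cytoplasmic RNA at 96 h, against 10.9, 11.9 and 11.5 CPM at 0 h. In nuclear RNA it was at 39.5, 54.6 and 68.2 CPM at 96 h, against 7.90, 11.9 and 12.7 CPM at 0 h. The groups were far apart in both fractions, and the log2 change was 2.31 ± 0.22 in each (adjusted p = 4.4e-12 in cytoplasmic and 3.9e-12 in nuclear RNA). In nuclear RNA Snai1 was higher than at 0 h at 6 h (0.66) and dropped again to 12 h (-0.71). At 48 h it was higher than at 0 h in both fractions (0.53 in cytoplasmic and 0.65 in nuclear RNA), and further called steps led from 48 h to 72 h (0.58 in cytoplasmic and 1.11 in nuclear RNA) and from 72 h to 96 h (1.198 and 0.55). In total RNA Snai1 was at 68.2 and 32.7 CPM at 96 h in runs 1 and 2, against 11.3, 7.06 and 2.24 CPM at 0 h in runs 1, 2 and 3, a change of 2.46 ± 0.46 (adjusted p = 0.014). Its promoter entry holds the E-box word once, shown for comparison with Epcam, 126 bases before the start.

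Snai1 E-box, chr2:167538057-167538086, + strand: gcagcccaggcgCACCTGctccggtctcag

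Snai2 (chr16:14705852-14709385), the relative of Snai1 best known from neural crest, stayed the lowest in CPM of the 8 genes at 96 h. It was at 2.75, 3.75 and 2.69 CPM in cytoplasmic RNA at 96 h, against 0.917, 1.12 and 0.716 CPM at 0 h. In nuclear RNA it was at 1.33, 4.10 and 3.51 CPM at 96 h, against 1.28, 1.42 and 0.868 CPM at 0 h. The cytoplasmic groups did not overlap and the nuclear groups did. The cytoplasmic change of 1.75 ± 0.65 was called (adjusted p = 0.019), but not without run 7 (1.67, adjusted p = 0.14), without run 6 (1.74, adjusted p = 0.069), without the 0 h library of run 7 or without the 96 h library of run 6. The nuclear change was 1.33 ± 0.63 (adjusted p = 0.067) and was called by DESeq2 (adjusted p = 0.036) and without run 5 (1.72, adjusted p = 0.032).

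Twist1 (chr12:33957671-33959829), a basic helix-loop-helix factor of mesoderm and neural crest, was near the floor at 0 h and rose from the first interval. Cytoplasmic Twist1 was at 23.8, 18.8 and 15.2 CPM at 96 h, against 0.459, 0.714 and 0.417 CPM at 0 h. Nuclear Twist1 was at 18.3, 29.5 and 20.1 CPM at 96 h, against 0.296, 0.109 and 0.400 CPM at 0 h. All later libraries in cytoplasmic RNA lay above those at 0 h, and the log2 changes at 96 h were 5.20 ± 0.49 (adjusted p = 4e-12) and 6.41 ± 0.53 (adjusted p = 9e-14). It was called already at 6 h (2.03 in cytoplasmic and 2.63 in nuclear RNA). In total RNA it was at 10.6 and 17.1 CPM at 96 h in runs 1 and 2, against 1.34, 1.92 and 0.232 CPM at 0 h in runs 1, 2 and 3. This was a log2 change of 3.07 ± 0.48 (adjusted p = 0.0086).

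Zeb1 and Zeb2 encode zinc finger and homeodomain repressors that share their DNA sites. Zeb1 (chr18:5591860-5775467) was already expressed at 0 h. It was at 63.9, 66.0 and 54.9 CPM in cytoplasmic RNA at 96 h, against 32.9, 40.2 and 37.1 CPM at 0 h, and at 51.9, 44.3 and 42.7 CPM in nuclear RNA at 96 h, against 36.9, 27.6 and 29.2 CPM at 0 h. The groups did not overlap, and the changes were 0.75 ± 0.16 (adjusted p = 6.9e-05) and 0.57 ± 0.16 (adjusted p = 0.0018). Nuclear Zeb1 had its highest mean already at 6 h (47.5 CPM, against 31.3 CPM at 0 h and 46.3 CPM at 96 h). Cytoplasmic Zeb1 was highest at 96 h. Its libraries at 12, 24, 36 and 48 h lay above those at 0 h, and those at 6 and 72 h overlapped them. In total RNA Zeb1 was at 12.7 and 36.1 CPM at 96 h in runs 1 and 2, against 15.4, 22.9 and 22.9 CPM at 0 h in runs 1, 2 and 3, values that overlapped (0.34 ± 0.53, adjusted p = 0.66).

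Zeb2 (chr2:44983632-45117395) was nearly absent at 0 h and made its called rises by 48 h. Summed over the 3 libraries at 0 h, it had 4 counts in cytoplasmic and 6 counts in nuclear RNA, with 1 library of each fraction at 0 counts, so its fitted change at 96 h (8.58 and 7.73 on the log2 scale) depends on the prior count. In cytoplasmic RNA it was at 0.183, 0 and 0.119 CPM at 0 h, 4.16, 3.69 and 5.12 CPM at 24 h, 18.6, 16.8 and 22.5 CPM at 36 h, 41.5, 46.2 and 38.4 CPM at 48 h, and 47.3, 46.5 and 39.4 CPM at 96 h. The libraries at 24, 36 and 48 h did not overlap, whereas those at 48, 72 and 96 h did. Called steps between neighbouring times were 12 h to 24 h (4.41 in cytoplasmic and 3.11 in nuclear RNA), 24 h to 36 h (2.15 and 2.32) and 36 h to 48 h (1.12 and 1.29), and none after that. Nuclear Zeb2 averaged 40.4 CPM at 48 h, 26.7 CPM at 72 h and 31.9 CPM at 96 h, and its step from 48 h to 72 h (-0.59, adjusted p = 0.089) was not called. The called rises of Zeb2 thus ended at 48 h, where the largest step of Cdh2 began. In total RNA it was at 7.51 and 22.4 CPM at 96 h in runs 1 and 2, against 0.191, 0.326 and 0 CPM at 0 h in runs 1, 2 and 3. This was a change of 5.81 ± 0.78 (adjusted p = 0.0058). GENCODE lists a gene antisense to Zeb2 (Zeb2os) and antisense transcripts within Cdh2 and Zeb1. The library kit keeps strand, and in the study's methods STAR was set for stranded reads. The methods give this for every library, while the processing notes list Bowtie2 for the single-end ones.

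Compared per length within libraries, the order of the 8 genes in cytoplasmic RNA changed between 0 h and 96 h. At 96 h it was Vim (847 TPM), Cdh2 (86.9), Snai1 (61.8), Epcam (23.2), Zeb1 (21.3), Twist1 (20.96), Zeb2 (17.8) and Snai2 (2.53 TPM), all as means of 3 libraries. At 0 h it was Vim (402 TPM), Epcam (75.1), Snai1 (10.1), Zeb1 (9.95), Cdh2 (2.30), Snai2 (0.613), Twist1 (0.463) and Zeb2 (0.0133 TPM). At 96 h the ranges of Epcam, Zeb1, Twist1 and Zeb2 overlapped, as did those of Snai1 and Zeb1, and of Snai2 and Twist1, at 0 h. These TPM sum over the listed chromosomes only and are not on the scale of the total RNA values.

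**Figure D3:**
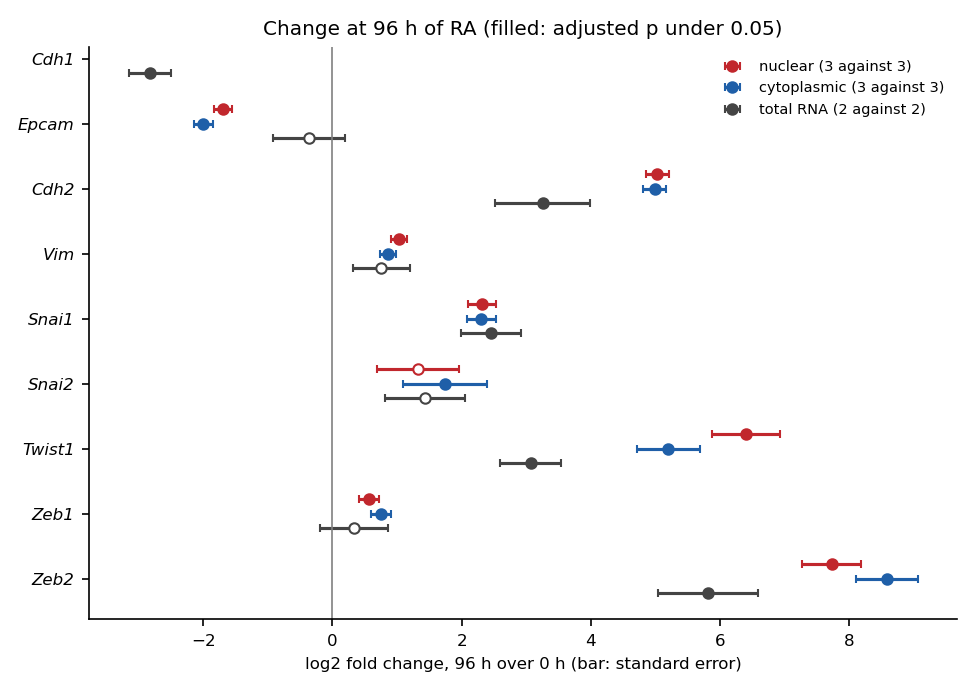
Log2 fold change of 96 h over 0 h for each gene in cytoplasmic, nuclear and total RNA (4 single-end libraries), with bars for the standard error and filled points for an adjusted p under 0.05. Cytoplasmic and nuclear points differ most for Twist1, by 1.21, and Epcam, Vim, Snai2 and Zeb1 have open points in total RNA, as Snai2 also has in nuclear RNA.

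At 96 h the nuclear and cytoplasmic changes had the same direction in all 8 genes. For the difference between the 96 h changes of nuclear and cytoplasmic RNA, 0 of 8 genes passed the test, 0 had an unadjusted p under 0.05 and 0 were called by DESeq2. Over all genes 0.00% were called, with 814 at an unadjusted p under 0.05 and 4 called by DESeq2. As the test called no gene at all, its result is not particular to the 8 genes. The largest differences were those of Twist1 (1.21 ± 0.74) and Zeb2 (-0.85 ± 1.01), the genes with the fewest counts at 0 h. Averaged over the 8 times, Zeb1 (-0.22) and Cdh2 (-0.23 on the log2 scale) were slightly lower in nuclear than in cytoplasmic RNA (adjusted p = 0.0020 and 0.0044), 2 of 8 genes against 31.1% of all genes called. Without run 6 neither was called, and without run 7 Zeb1 was not (adjusted p = 0.063). The nuclear marker RNA Malat1 averaged 676 CPM in nuclear and 356 CPM in cytoplasmic RNA at 0 h, 507 CPM in nuclear and 499.6 CPM in cytoplasmic RNA at 6 h, 396 CPM in nuclear and 422 CPM in cytoplasmic RNA at 12 h, 337 CPM in nuclear and 353 CPM in cytoplasmic RNA at 36 h, and 664 CPM in nuclear and 519 CPM in cytoplasmic RNA at 96 h. Libraries of the 2 fractions overlapped in Malat1 at 6, 12, 24, 36 and 72 h and did not at 0, 48 and 96 h. The separation of the fractions by this marker was therefore modest at best, and was not seen in the means at 12 and 36 h. The part of incomplete separation in the likeness of the fractions and in the differences between them was not tested.

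Both cadherins and, except for Snai1, the EMT factors were lower in sorted XEN than in sorted ECT cells. With 1 library each there is no test, and intervals cover counting error only. Of the 9 genes, 1 was at least 2-fold higher in XEN and 6 were at least 2-fold lower, against 6.71% and 21.5% of 15088 genes. Cdh1 was at 30.4 CPM in XEN and 161 CPM in ECT, that is 5.29-fold lower in XEN (95% interval 4.89 to 5.73). Cdh2 was at 1.22 CPM in XEN (28 counts) and 105 CPM in ECT (3802 counts), 86.5-fold lower in XEN (59.7 to 130). Both cadherins were thus lower in XEN than in ECT, and per length Cdh1 was the more abundant in each, by 21.2-fold in XEN and 1.35-fold in ECT.

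Snai1 was the exception among the 9, with 101 CPM in XEN and 8.20 CPM in ECT, 12.4-fold higher in XEN (10.965 to 14.0). Its relative Snai2 was at 0.261 CPM in XEN (6 counts) and 2.96 CPM in ECT (107 counts), 11.4-fold lower in XEN (5.05 to 31.6). Zeb2 was at 3.18 CPM in XEN and 18.1 CPM in ECT, 5.69-fold lower (4.46 to 7.35). The other factors went the same way. Twist1 was at 5.83 CPM in XEN and 18.9 CPM in ECT, and Zeb1 at 8.09 CPM in XEN and 20.97 CPM in ECT. Epcam (37.8 CPM in XEN and 54.5 CPM in ECT) and Vim (580 CPM in XEN and 802 CPM in ECT) stayed within 2-fold. Without TMM scaling, an alternative chosen after seeing the data, the median of all genes moved by -0.30 on the log2 scale and the same 7 genes stayed past 2-fold. The ECT library was not free of XEN transcripts: the summed level of 12 XEN markers was 10797 TPM in XEN and 5564 TPM in ECT, with Gata6 at 605 CPM in XEN and 143 CPM in ECT. Of the 12, Foxa2 differed least, at 142 CPM in XEN and 133 CPM in ECT. Sox7 differed most, at 174 CPM in XEN and 15.3 CPM in ECT. The summed level of 8 neural markers was 41.96 TPM in XEN and 679 TPM in ECT, of which the sort marker Cd24a made up 14.1 TPM in XEN and 544 TPM in ECT. Without Cd24a the sum was 27.8 TPM in XEN and 134.9 TPM in ECT. The source of the XEN transcripts in the ECT library, and their part in the values, was not tested.

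**Figure D4:**
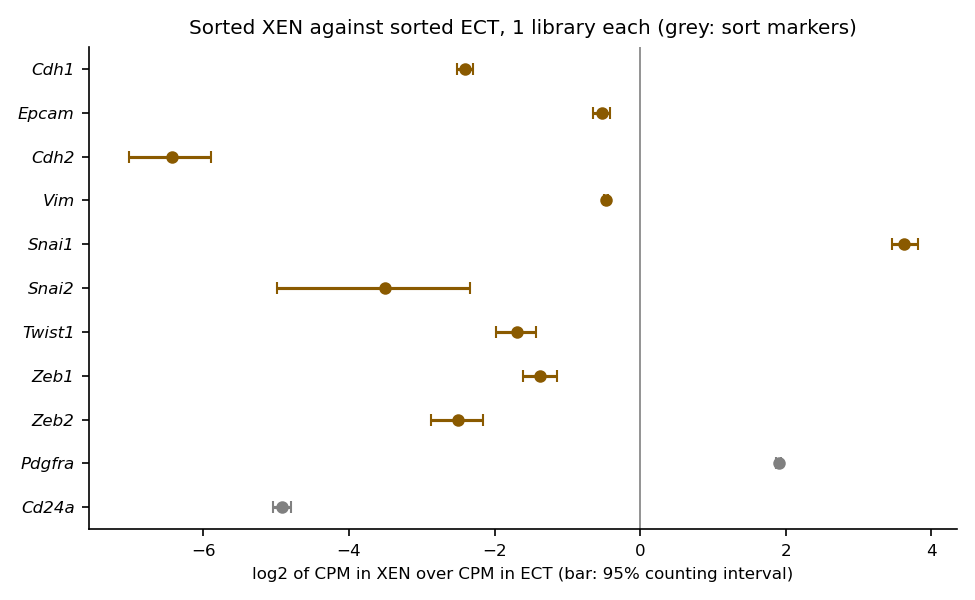
Log2 ratio of CPM in the sorted XEN library over CPM in the sorted ECT library for the 9 genes and, in grey, the sort markers Pdgfra and Cd24a, with 95% counting intervals as bars. Snai1 alone of the 9 lies right of 0 (12.4-fold higher in XEN), and Cdh2 lies farthest left (86.5-fold lower in XEN).

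The other genes of adhesion and EMT moved in both directions. Of 34 epithelial junction and differentiation genes, 26 were tested in cytoplasmic RNA at 96 h. Of these, 13 rose and 10 fell (median 0.39), against 31.8% and 29.4% of all genes. Those that rose most were the simple epithelial keratins Krt19, at 111 ± 21.6 CPM at 96 h and 0.979 ± 0.641 CPM at 0 h (SD, n = 3 each), Krt18 (6.13 on the log2 scale) and Krt8 (5.05). Those that fell most were the grainyhead factor Grhl3 (-3.38), the tight junction claudin Cldn4 (-2.99) and Grhl2 (-2.66). On the chromosomes listed only in total RNA, the membrane protease Prss8 (4.20), the splicing factor Esrp2 (1.52) and the tight junction scaffold Tjp1 (1.22) rose, and the protease St14 (-1.43) fell. Keratins have close paralogs and pseudogenes, so that their estimated counts may share reads. In the sorted cells, 1 of 33 epithelial genes was at least 2-fold higher in XEN and 15 were lower, against 6.71% and 21.5% of all genes. Krt8 was at 955 CPM in XEN and 813 CPM in ECT, while Cldn4 was at 0.479 CPM in XEN and 14.8 CPM in ECT.

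Of the classical cadherins outside the list, 4 were tested in cytoplasmic RNA, of which Cdh6 (7.91), a cadherin of neural and kidney progenitors, and Cdh24 (2.27) rose and none fell, against 31.8% and 29.4% of all genes. In total RNA 5 of 8 rose, against 16.4% of all genes, among them the endothelial cadherin Cdh5 (9.52) and the mesenchymal cadherin Cdh11 (4.43). In these libraries Cdh5 was at 15.1 ± 11.9 CPM at 96 h and 0.0165 ± 0.0233 CPM at 0 h (SD, n = 2 each). That is near the floor at 0 h, so the fitted change of Cdh5 depends on the prior count. Cdh5 was at 12.3 CPM in XEN and 2.55 CPM in ECT, and Cdh11 at 0.348 CPM in XEN and 19.2 CPM in ECT. Of 5 catenins tested in cytoplasmic RNA, 1 rose and 3 fell, against the same shares of 31.8% and 29.4%. Those that fell were Ctnnd2 (-1.07), Jup (-0.66) and Ctnna1 (-0.26), which links cadherin complexes to actin.

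Of 5 other EMT transcription factors tested in cytoplasmic RNA, 3 rose and 1 fell, against 31.8% and 29.4% of all genes. Sox9 was at 17.1 ± 2.38 CPM at 96 h and 0.0199 ± 0.0344 CPM at 0 h, Tcf3, the E protein partner of bHLH factors, rose by 0.77, and Gsc, a factor of the organizer, fell by 5.30 on the log2 scale. Of 13 mesenchymal genes, 10 rose and 3 fell (median 1.91), against the same shares of all genes. Smooth muscle actin, Acta2, had 0 counts in all 3 libraries at 0 h and 136 to 148 CPM at 96 h, at least 1790-fold higher when 3 counts over the 0 h group are taken as the floor. The collagens Col1a2 (4.62) and Col1a1 (3.32) rose. Fibronectin, Fn1, fell (-1.50), at 1116 ± 32.6 CPM at 96 h and 3166 ± 419 CPM at 0 h (SD, n = 3 each), as did Pdgfrb (-1.61). In total RNA 9 of 19 mesenchymal genes rose and 0 fell, against 16.4% and 13.3% of all genes. Tagln (8.01), Mmp2 (3.18) and Itgb1 (2.40) were among those that rose. In the sorted cells 12 of 19 were at least 2-fold lower in XEN and 1 was higher, against 21.5% and 6.71% of all genes, with Acta2 at 2.13 CPM in XEN and 223 CPM in ECT and Tagln at 17.1 CPM in XEN and 236 CPM in ECT.

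Markers of other cell types moved with these genes. In cytoplasmic RNA the 11 listed XEN markers, all tested and all higher at 96 h, summed to 7505 to 11276 TPM at 96 h and 174 to 205 TPM at 0 h. The 4 listed neural markers summed to 332 to 365 TPM at 96 h and 92.0 to 103 TPM at 0 h, and without Cd24a to 128 to 147 TPM at 96 h and 11.3 to 13.6 TPM at 0 h. Total RNA lists all 8 neural markers, of which 4 were called higher at 96 h, against 16.4% of all genes. There the sum without Cd24a was 50.2 to 166 TPM at 96 h and 33.4 to 97.2 TPM at 0 h, ranges that overlapped. Again in cytoplasmic RNA, the 5 listed pluripotency markers summed to 124 to 173 TPM at 96 h and 2912 to 2946 TPM at 0 h. Markers of mesoderm (4.03 to 5.30 TPM at 96 h and 10.8 to 15.4 TPM at 0 h for 3 listed genes) and fibroblasts (4.79 to 6.59 TPM at 96 h and 5.51 to 6.81 TPM at 0 h for 6 listed genes) were low at both times, and the fibroblast gene Fap was at 0 in every library at both. The 5 listed neural crest markers summed to 16.5 to 19.1 TPM at 0 h, 36.7 to 45.8 TPM at 6 h, 26.3 to 31.97 TPM at 12 h and 12.1 to 14.4 TPM at 96 h. Of the 4 tested at 96 h, Tfap2b (9.61) and Pax3 (3.65) rose and Foxd3 (-5.16) fell, against 31.8% and 29.4% of all genes. Tfap2b had 0 counts in every cytoplasmic library at 0 h, so its fitted change depends on the prior count. The parts of these cell types in the results were not tested.

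Over the 24 cytoplasmic libraries, the genes with the courses most like those of the 8 were found by Pearson's r of log2(CPM + 1) among 2060 genes with a mean count of at least 50 and time-point means spanning at least 2 on that scale. For Cdh2 they were Antxr2 (r = 0.990), Ednrb (0.989) and Sdk2 (0.988), and for Zeb2 they included Thbs3 (0.983) and Rcsd1 (0.982). For Twist1 they were Speg (0.977), Lhfpl4 (0.973) and Nnat (0.970), for Epcam Impa2 (0.976), Bhmt (0.975) and Ankrd35 (0.963), and for Snai1 Tax1bp3 (0.965), Flt1 (0.959) and Nfxl1 (0.956). Snai2 (Zhx1, 0.896), Vim (Epas1, 0.863) and Zeb1 (Mir22hg, 0.845) had looser best matches. Their own time-point means spanned 1.08, 1.00 and 0.73, and those of Epcam 1.97, less than the 2 asked of the pool. Genes with spans as small were thus not among the candidates. Among the 8 genes themselves r was 0.903 between Cdh2 and Snai1, 0.887 between Twist1 and Zeb2, -0.903 between Cdh2 and Epcam and -0.954 between Epcam and Twist1. These libraries share 8 times and 3 runs, so the values describe courses and carry no test.

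The miR-200 family, the textbook partner of the ZEB factors, has 5 members in 2 seed groups. Their mature 3p sequences are given from RefSeq (GRCm38.p6, all 5 matched), with the seed, bases 2 to 8, in capitals, because the 2 groups differ by 1 letter of the seed and read different words in a target.

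miR-200a-3p, chr4:156054911-156054932, - strand: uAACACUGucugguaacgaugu
miR-141-3p, chr6:124717917-124717938, - strand: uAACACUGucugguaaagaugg
miR-200b-3p, chr4:156055685-156055706, - strand: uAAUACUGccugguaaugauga
miR-200c-3p, chr6:124718324-124718346, - strand: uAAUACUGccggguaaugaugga
miR-429-3p, chr4:156053916-156053937, - strand: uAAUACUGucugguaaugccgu

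The words that pair with these seeds are CAGTGTT (miR-141 and miR-200a) and CAGTATT (miR-200b, miR-200c and miR-429). In the GENCODE 3′ UTRs, Zeb1 holds 9 of them in 2401 bases and Zeb2 9 in 4941 bases. No other gene among the 3192 with a UTR of similar length to that of Zeb1, or the 1215 for Zeb2, has as many. Snai2 holds 2, Snai1 1 and the other 5 genes none, while 17.9% of 21157 genes hold CAGTGTT and 13.9% CAGTATT. The first 3 matches in the Zeb2 UTR are shown with 10 bases on either side, as the gene with the largest rise.

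Zeb2 match 1, chr2:44988348-44988374, - strand: aaattttgtaCAGTGTTaaggcctaaa
Zeb2 match 2, chr2:44988164-44988190, - strand: taccatacatCAGTATTttattattat
Zeb2 match 3, chr2:44988099-44988125, - strand: tacagtgcatCAGTATTacgattcctc

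The 2 miRs of chromosome 6 were called lower at 96 h with and without the run as a block, and the 3 of chromosome 4 only with it. miR-200c-3p was at 102, 222, 182 and 80.6 CPM of miR reads at 96 h in runs 3, 5, 6 and 7, against 1046, 1969.8, 1379 and 1711 CPM at 0 h. miR-141-3p was at 3.29, 7.19, 7.43 and 1.13 CPM at 96 h, against 19.6, 66.2, 48.3 and 55.3 CPM at 0 h. All 4 libraries at 96 h lay below all 4 at 0 h for both, and the log2 changes were -3.38 ± 0.55 (adjusted p = 3.5e-05) and -3.29 ± 0.71 (adjusted p = 0.00067). Thus 2 of 5 were called, against 24.4% of 739 miRs. miR-200c-3p was first called at 48 h (-1.85, adjusted p = 0.013, 1 of 5 against 16.1% of miRs) and both at 72 h (22.7% of miRs). At 6, 12, 24 and 36 h, 0 of 5 were called (0.00%, 0.00%, 0.00% and 6.36% of all miRs), with 0, 0, 0 and 1 at an unadjusted p under 0.05 and 0 by DESeq2. With the run as a block, miR-141-3p was lower than at 0 h at 24 h (-1.13, adjusted p = 0.047) and at 48 h (-1.35, adjusted p = 0.012), and miR-200c-3p at 36 h (-1.07, adjusted p = 0.014).

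miR-200b-3p was at 273, 712, 759.6 and 1139 CPM at 96 h, against 790.1, 1418, 1378 and 1787 CPM at 0 h in the same runs. It was higher in between, at 1456, 2955, 2654 and 6269.6 CPM at 36 h. The 96 h and 0 h libraries overlapped, and neither change was called (-0.90 ± 0.54, adjusted p = 0.27 at 96 h, and 1.31, adjusted p = 0.19 at 36 h). miR-200a-3p (-1.45 ± 0.77, adjusted p = 0.19) and miR-429-3p (-1.45 ± 0.73, adjusted p = 0.17) were not called either. With the run as a block all 3 were lower at 96 h, by -1.02 (adjusted p = 0.015) for miR-200b-3p, -2.10 (adjusted p = 0.0015) for miR-200a-3p and -1.90 (adjusted p = 0.0015) for miR-429-3p, and miR-200b-3p was higher at 36 h by 1.18 (adjusted p = 0.012) and at 48 h by 0.97 (adjusted p = 0.024). In the same fit miR-200a-3p (-1.52, adjusted p = 0.017) and miR-429-3p (-1.38, adjusted p = 0.018) were already lower at 72 h. Run 7 had low miR-200a-3p and high miR-200b-3p at most times, and its 72 h library was the shallowest with 1041501 counts. Between 24 h and 48 h, when Zeb2 made its called rises after 24 h, miR-200c-3p averaged 949 CPM at 24 h, 770.2 CPM at 36 h and 422 CPM at 48 h, and miR-200b-3p 2423, 3334 and 2965 CPM.

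**Figure D5:**
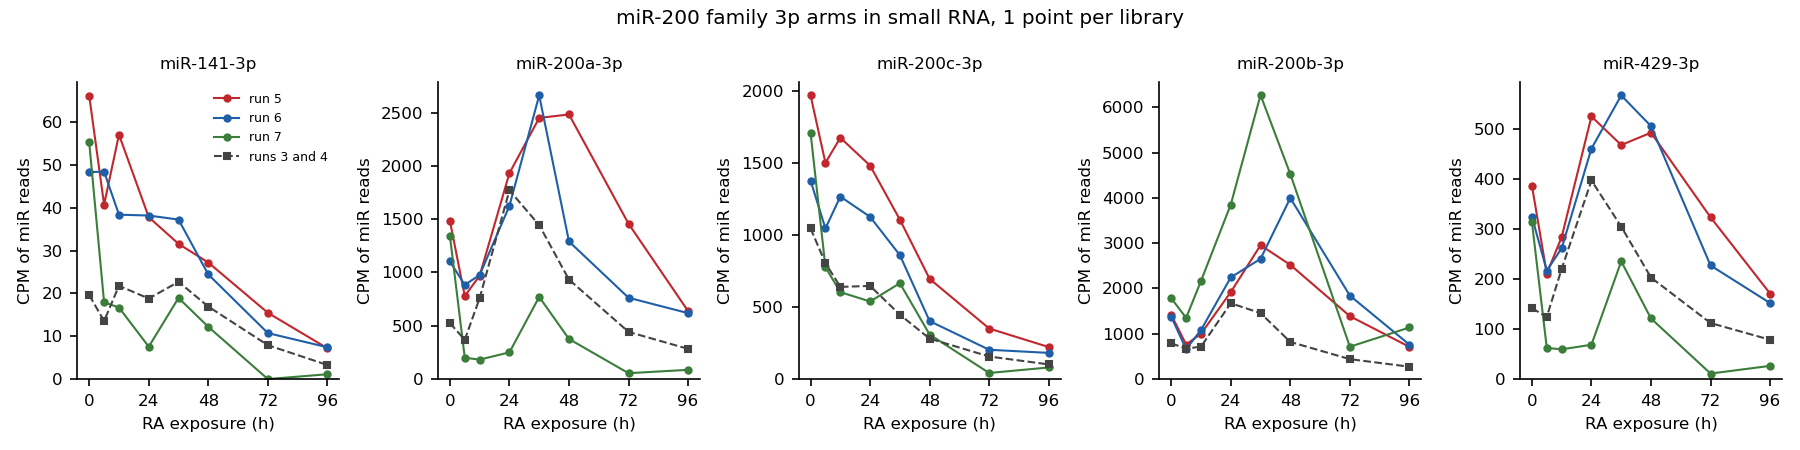
CPM of miR reads of the 5 miR-200 family 3p arms against hours of RA exposure, with 1 point per library and lines for runs 5, 6 and 7 and for runs 3 and 4 together (run 4 at 6 and 12 h); each panel has its own linear axis from 0. miR-200c-3p and miR-141-3p end below all of their 0 h values, whereas miR-200b-3p peaks between 24 h and 48 h, at up to 6269.6 CPM in run 7.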

How the data were processed

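RNA values were the expected counts and TPM that the authors estimated with RSEM on mm10 and deposited per library. Per the processing notes, single-end total and sorted RNA was aligned with Bowtie2 2.2.6 (RSEM 1.2.28), and paired-end total RNA and fractions were trimmed with Trimmomatic 0.38 and aligned with STAR 2.6.1a (RSEM 1.3.1). Small RNA values were whole-number counts of reads per miR that the authors deposited. Here, expected counts were rounded and TMM-scaled, and genes with a mean count above 10 entered edgeR's quasi-likelihood test (edgeR 4.0.16, R 4.3.3) with Benjamini-Hochberg adjustment over all genes and a threshold of 0.05. DESeq2 1.42.0 was an alternative. CPM are TMM-scaled. Each fraction library holds shares of its own fraction, so absolute amounts were not compared. Values of the 4 total RNA libraries were also set side by side within each run, chosen after seeing the data.

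The labels number biological replicates, and these numbers were taken here as differentiation runs that pair libraries. Single-end total RNA libraries without a number in their titles were placed in a run here, not by the labels. Deviations from group means correlated between same-numbered libraries with a median r of 0.716 in small RNA (lowest -0.309) and -0.0605 between fractions. In total RNA r was 0.422. With 2 libraries in each group the deviations mirror each other, so that this is a single value and no median. Nothing else states separate cultures, so p-values measure the spread between these runs. Sorted libraries were compared with exact 95% intervals of counting error. Named list genes were those with the largest called changes in each direction, at most 3, with a mean count of at least 50. Some genes that these rules name are not reported here. The 9 genes and all lists were chosen with earlier results of these data known. The tests were tested on simulated data. Libraries after miR transfection and the table of coding and 3′ UTR counts were not used here.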

Additional observations from a re-analysis of the deposited data

Results flagged for a closer look

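In groups of 4 small RNA libraries, 1 value of the miR-200 family stood farther from the others than Dixon's critical value allows. It was miR-200b-3p at 6 h, where run 7 had 1351 CPM of miR reads and runs 4, 5 and 6 had 672, 763 and 662 CPM. Of the 40 groups examined, chance alone would give about 1 in 20.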

How the results depend on the processing

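Of the 584 values of single genes and miRs under alternatives, 548 kept their direction and their side of the threshold. The rest were 13 calls lost, 12 gained and 11 changes of sign, and beyond the smaller number of libraries in some of these fits the cause was not tested. Signs changed only for values that were not called. For nuclear against cytoplasmic RNA, Epcam was at 0.0069 on the log2 scale with a mean count above 50, and leaving out a run gave -0.025 to 0.013 for Epcam, -0.37 to 0.046 for Snai2 and -0.30 to 0.047 for Zeb2. For the difference of the 96 h changes it gave -0.11 to 0.20 for Cdh2 and -0.036 to 0.096 for Snai1. In total RNA, leaving out a library gave -0.99 to 0.73 for Epcam and -0.58 to 0.95 for Zeb1 over 4 libraries, and -0.74 to 0.34 for Epcam and -0.40 to 1.10 for Zeb1 (1.10 called, adjusted p = 0.039) over 14, with both extremes from single libraries at 0 h for Epcam and at 96 h for Zeb1. For the difference of the 96 h changes, DESeq2 called 4 genes and a fit with no low-count filter 71, against 0. With the run as a replicate block, total RNA gave 7462 called genes, and all 14 libraries gave 7243, against 4683. Leaving out a library gave 2519 to 4383. The block gave 320 called miRs against 180, and 5 of the miR-200 family against 2. Leaving out a run gave 106 to 282 miRs. Nuclear against cytoplasmic calls, 3677 genes, ranged from 1390 to 3894 and those of the 8 genes from 0 to 3 when a run was left out. The block changed no call of the 8 genes in the fractions. In total RNA over 14 libraries, the Snai2 change at 96 h (1.38, adjusted p = 0.030) lost its call without the filter and without any of 4 single libraries (adjusted p 0.051 to 0.18), 1 of them the 36 h library of run 1. Sorted values without TMM changed no sign. At 0 h, Zeb2, Twist1 and Snai2 were limited by depth.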
